A study of Mus musculus with 21 samples.

Results

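Of the 21 samples of this mouse series, 8 were tumours with a deposited list of single-nucleotide variants (SNVs), and 3 of those 8 carried the label A2iL-P9. These 3 A2iL-P9 tumours were set against 3 other tumours labelled P9, namely 2iL-P9, LCDM-P9 replicate 1 and 2iL-F-P9. The second LCDM-P9 tumour was left out of the comparison because its list holds a different set of sites, so the comparison tumours were chosen in part by the sites called in them. For that reason the numbers of calls, of all kinds, and the sites found on one side only are given as descriptions without a test. Allele fractions, depth ratios and the shares of base and protein changes are also taken over called sites, so that choice limits their p-values too.

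The study asked how embryonic stem cell (ESC) culture affects genome stability, and the tumours came from mice made entirely from cultured ESCs by tetraploid complementation. All 6 tumours were of the strain written C57BL6X129S6F1, and every list was called against 1 wild-type blood sample of the same strain label. The A2iL label names serum-free N2B27 medium on feeder cells with leukaemia inhibitory factor (1000 IU), CHIR99021 at 3 µM to inhibit GSK3, and CGP77675 at 1.5 µM to inhibit Src. The 2iL medium differs by holding the MEK inhibitor PD0325901 (1 µM) in place of CGP77675, and 2iL-F is that medium without feeder cells. The LCDM medium keeps LIF and CHIR99021 at the same doses and adds the compounds written Dim and Mih (2 µM each). One further tumour, A2iL-P14, was used only to describe which sites the A2iL-P9 tumours share with it. The labels do not say what P9 and P14 stand for, how the tumours arose, their tissue, or whether tumours with 1 label came from separate mice. The p-values below therefore measure the spread between tumour samples only.

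GSK3 inhibition stabilises beta-catenin, and MEK inhibition blocks the signal that drives mouse ESCs towards differentiation, so that the combination holds them in a naive state. Long exposure to MEK inhibition is known to lower DNA methylation in these cells, and Src inhibition has been used in its place. Tetraploid complementation injects several ESCs of a culture, so a mutation carried by some of the ESCs may be present in a part of the animal's cells only, as may one that arose later. The alternative-allele fraction, the share of reads at a site that carry the variant base, is near 0.5 for a heterozygous variant present in every cell of a diploid sample and lower for one present in a part of the cells. A site that was not called has no read data in the lists, so "not called" below does not mean that the variant was absent.

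A median of 28, 29 and 32 reads covered the calls of A2iL-P9 tumours 1, 2 and 3. The median was 38 reads in 2iL-P9, 30 in LCDM-P9 replicate 1 and 29 in 2iL-F-P9. Identifiers in dbSNP (build 142), which mark known polymorphisms, stood at 97.1 to 97.5% of the calls of each of the 6 tumours, and the control showed 0 or 1 alternative read at every call. Reads in support of the variant were as few as 2. The sample names in the headers of the 2iL-P9 and 2iL-F-P9 lists differ from their labels, and an exchange of these tumours would leave both on the same side of the comparison. Sites without a dbSNP identifier were shared across the culture labels as well as within them, as described after the comparison of counts.

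The A2iL-P9 tumours held about as many SNVs as the comparison tumours. The lists of A2iL-P9 tumours 1, 2 and 3 held 9790, 9874 and 10060 SNVs. There were 10325 in 2iL-P9, 9858 in LCDM-P9 replicate 1 and 9752 in 2iL-F-P9. The ranges overlap, the highest and the lowest count both lying on the comparison side. The means were 9908 ± 138 (SD, n = 3) and 9978 ± 305 (SD, n = 3). The tumour with the most calls, 2iL-P9, also had the highest median depth, and the part of depth in the number of calls was not tested.

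SNVs without a dbSNP identifier are the calls in which mutations specific to these animals or cells would be sought. They numbered 241, 274 and 284 in A2iL-P9 tumours 1, 2 and 3, against 286 in 2iL-P9, 285 in LCDM-P9 replicate 1 and 239 in 2iL-F-P9. The groups overlapped over nearly their whole range. The means were 266 ± 22.5 and 270 ± 26.9 (SD, n = 3 each), and they differed by less than these SDs.

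**Figure D1:**
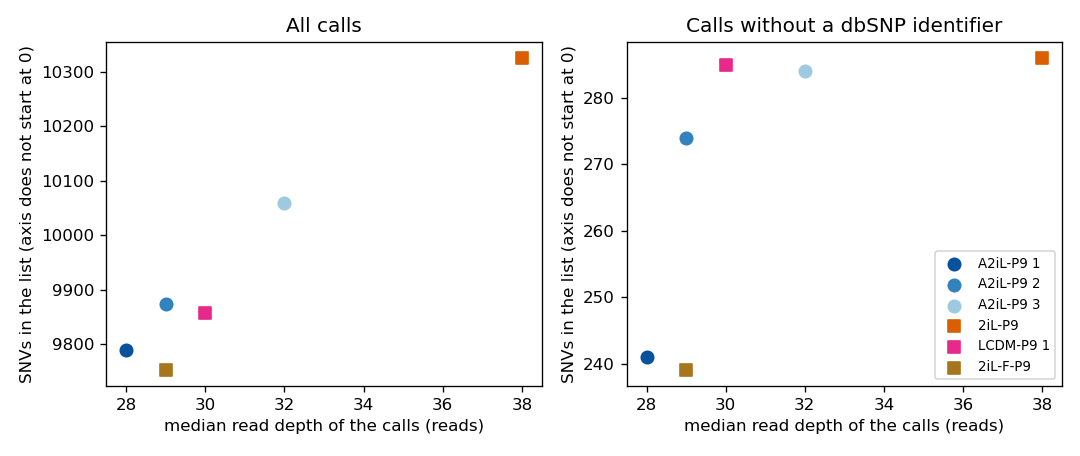
Number of SNVs in each tumour's list (vertical axis, not starting at 0) against the median read depth of its calls (horizontal axis), for all calls on the left and for calls without a dbSNP identifier on the right. Blue circles are the 3 A2iL-P9 tumours and squares the 3 comparison tumours. On both panels the counts of the circles lie within the range of those of the squares, and 2iL-P9, at 38 reads, has the most calls.

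Private SNVs, called in 1 of the 8 tumour lists and lacking a dbSNP identifier, numbered 28, 44 and 30 in the A2iL-P9 tumours. The comparison tumours had 45 (2iL-P9), 59 (LCDM-P9 replicate 1) and 21 (2iL-F-P9). The highest and the lowest value again lay on the comparison side, and the means differed by -7.67, less than the SD of 8.72 and 19.2 (n = 3 each). Without LCDM-P9 replicate 1 the difference was 1.0 private SNVs in the other direction.

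The allele fractions of the calls lay in a narrow band. The median fraction over all calls was 0.432, 0.436 and 0.433 in A2iL-P9 tumours 1, 2 and 3, and 0.431, 0.431 and 0.429 in 2iL-P9, LCDM-P9 replicate 1 and 2iL-F-P9. The 3 A2iL-P9 values were the 3 highest, by 0.00333 in the mean, and the exact two-sided permutation test gave p = 0.1. The second LCDM-P9 tumour, left out for its sites, had a median of 0.8, and with it the difference was -0.0891. With 3 against 3 tumours there are 20 splits and 0.1 is the smallest p such a test can give, so no test of these 6 tumours can pass 0.05. With at least 20 reads in tumour and control the difference was 0.00167 (exact permutation p = 0.6), and with no alternative control read the exact permutation p was 0.3. Calls without a dbSNP identifier had much lower medians, 0.162, 0.1775 and 0.1685 in the A2iL-P9 tumours. The corresponding medians were 0.155 in 2iL-P9, 0.167 in LCDM-P9 replicate 1 and 0.185 in 2iL-F-P9, so that the A2iL-P9 values fell inside the comparison range (exact permutation p = 1).

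Base changes were alike in kind on both sides. Substitutions of C to T, counted with their strand complement, made up 45.2, 40.5 and 41.5% of the calls without a dbSNP identifier in A2iL-P9 tumours 1, 2 and 3. In 2iL-P9, LCDM-P9 replicate 1 and 2iL-F-P9 the share was 42.0, 41.8 and 40.2%. The difference of 1.14 percentage points rested on A2iL-P9 tumour 1 and was -0.263 without it (exact two-sided permutation p = 0.7 with all 6 tumours, also after adjustment over the 6 classes). T to A was the 1 class whose values did not overlap, at 6.64, 5.84 and 5.99% in the A2iL-P9 tumours against 7.69, 6.67 and 8.79%. Its exact permutation p of 0.1 became 0.6 after Benjamini-Hochberg adjustment over the 6 classes.

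Coding calls without a dbSNP identifier changed a protein about as often on the A2iL-P9 side as on the other. In A2iL-P9 tumour 1, 46 of 82 coding calls were missense, stop-gain or stop-loss, a share of 56.1% (95% Wilson interval 45.3 to 66.3%). Tumour 2 had 44 of 88, or 50% (39.8 to 60.2%), and tumour 3 had 55 of 102, or 53.9% (44.3 to 63.3%). The comparison tumours had 50.5% (2iL-P9), 51.9% (LCDM-P9 replicate 1) and 58.4% (2iL-F-P9), and the means differed by -0.282 percentage points (exact two-sided permutation p = 0.9, n = 3 each). These intervals cover counting error only.

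The sites themselves were next compared. Of 11824 sites called in any of the 6 tumours, 7781 (65.8%) were called in all 6. Among the 572 sites without a dbSNP identifier 109 (19.1%) were called in all 6. In all, 20 sites were called in all 3 A2iL-P9 tumours and in no comparison tumour, 0.169% of the sites called in any of the 6. In the other direction there were 27 sites, or 0.228%. These counts include 1 site without a dbSNP identifier on the A2iL-P9 side (0.175% of 572) and 2 on the comparison side (0.35%). Far more sites were called in 1 tumour of a side and none of the other, 455 in A2iL-P9 tumours and 494 in comparison tumours.

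The 20 sites of the A2iL-P9 side lay in 17 genes and at thin coverage. Their median depth was 16 reads and the median support 4 alternative reads, and 13 were intronic. A median of 31 reads covered the 27 comparison-side sites. Of the 20, 10 were also called in the A2iL-P14 tumour and 0 in the second LCDM-P9 tumour. Of the 27 comparison-side sites 19 were also called in A2iL-P14. Neither count was tested, since the sites called had a part in choosing the tumours. How often A2iL-P14 called other sites of the 6 tumours is not given, so neither count has a background share. Over all calls, the sites in both lists over those in either ran from 0.840 to 0.861 for A2iL-P14 with each of the 6 tumours.

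One protein-changing site was called on the A2iL-P9 side alone, Celf3 P369S in exon 10 (chr3:94488171, rs33065732, mm10). Celf3 is an RNA-binding protein of the CELF family of splicing regulators. The variant base was read in 7 of 9, 4 of 6 and 2 of 2 reads in A2iL-P9 tumours 1, 2 and 3, and in 0 of 8 control reads. With 2 reads in tumour 3 its fraction of 1 has a Wilson interval of 0.342 to 1. An intronic Celf3 site 76 bp away, also of the A2iL-P9 side, was covered by 10, 5 and 3 reads.

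Other genes of the A2iL-P9 side held synonymous, intronic or untranslated changes, most of them known polymorphisms. Cep164, which builds the appendages that anchor the primary cilium, carried a splice-region change (6 of 12, 6 of 14 and 3 of 12 reads) and a synonymous change, D379D, 12 bp apart. Pkhd1, which encodes the cilium-associated protein fibrocystin, carried 2 intronic sites at fractions of 0.208 to 0.261. Pax9, a developmental transcription factor, carried a change in the 3' untranslated region in 4 of 14, 3 of 8 and 2 of 6 reads. Stk4, a kinase of the Hippo growth-control pathway, carried an intronic change in 3 of 22, 4 of 25 and 3 of 23 reads. The only A2iL-P9-side site without a dbSNP identifier was Gm4884 L519L, a synonymous change in a segmental duplication read in 8 of 133, 11 of 145 and 8 of 131 reads.

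On the comparison side the single protein change outside segmental duplications was Vmn2r70 A848V (chr7:85558725, exon 6), in a vomeronasal pheromone receptor. It was read in 7 of 31 reads in 2iL-P9, 4 of 21 in LCDM-P9 replicate 1 and 3 of 15 in 2iL-F-P9. The other protein changes, Vmn1r10 A124V and Gm5458 R150H, lay in segmental duplications, where reads of near-identical copies can be mixed. Mcm6, a subunit of the replicative DNA helicase, carried 2 intronic sites 11 bp apart, with fractions of 0.132 to 0.262. Both Mcm6 sites had 1 alternative read in the control and were also called in A2iL-P14, in 7 of 54 and 8 of 55 reads. Mcmbp, a partner of that helicase, carried an intronic site in 8 of 22, 5 of 17 and 5 of 19 reads, and in 3 of 13 in A2iL-P14. Ada, which deaminates adenosine, carried the synonymous change A247A in 6 of 70, 11 of 79 and 9 of 82 reads. Neither the Ada site nor Vmn2r70 A848V was called in A2iL-P14.

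At the level of whole genes few differed between the sides. Of 3077 genes with a call in any of the 6 tumours 2504 had one in all 6. Dctd, the deaminase that supplies dUMP for thymidylate synthesis, was the 1 gene called in all 3 A2iL-P9 tumours and no comparison tumour, through an intronic site read in 5 of 14, 8 of 17 and 5 of 19 reads. The same site was called in A2iL-P14 in 10 of 21 reads. In the other direction there were 3 genes, 4930579F01Rik, F2r and Nfya. F2r is the thrombin receptor, and its change in the 5' untranslated region was read in 3 of 11, 4 of 5 and 5 of 12 reads. Nfya, a subunit of the CCAAT-binding factor NF-Y, had an intronic change in 6 of 9, 3 of 5 and 5 of 8 reads. All 3 were called in A2iL-P14 too, F2r in 4 of 8 reads, Nfya in 9 of 12 and 4930579F01Rik in 6 of 16.

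Reference sequence could be printed for sites that fall in the promoter windows of RefSeq genes (GRCm38.p6, the assembly behind mm10). In the 6 tumours 187 sites lay in such a window, and the reference base of the list matched the RefSeq base at all 187. The 4 windows below show a site of the comparison side, a site of A2iL-P9 tumours 2 and 3, a site of all 3 A2iL-P9 tumours and 2iL-P9, and a site of A2iL-P9 tumours 1 and 2 and 2iL-F-P9. Each is the plus strand, 5' to 3', and the capital marks the base that varies.
F2r, chr13:95618417-95618436, T to A: acttctttcTgagtagctcg
Cd209f, chr8:4105765-4105785, C to T: tccaccttccCtctgccctgg
Pcolce, chr5:137611370-137611390, G to A: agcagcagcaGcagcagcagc
Gm11756, chr4:73920761-73920781, C to T: aggagactccCgtgcaaatgt
All 4 genes lie on the minus strand. The Pcolce site sits in a run of agc triplets that the annotation marks as a repeat, and was read in 4 of 16, 8 of 25 and 6 of 28 reads in A2iL-P9 tumours 1, 2 and 3 and in 6 of 26 in 2iL-P9. The Cd209f and Gm11756 windows are annotated as segmental duplications. The list gives no gene name at these 2 sites, which are placed here by the RefSeq window. The Cd209f site was read in 3 of 26 and 4 of 33 reads in A2iL-P9 tumours 2 and 3, and the Gm11756 site in 9 of 96 and 7 of 109 reads in A2iL-P9 tumours 1 and 2 and 10 of 71 in 2iL-F-P9.

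Sharing of sites between tumours was then described pair by pair. The Jaccard index, the number of sites in both lists over the number in either, was 0.833 to 0.839 for the 3 pairs of A2iL-P9 tumours over all calls. It was 0.829 to 0.856 for the 9 pairs of an A2iL-P9 with a comparison tumour. For calls without a dbSNP identifier the ranges were 0.459 to 0.496 within A2iL-P9 and 0.455 to 0.549 across. The ranges within A2iL-P9 lie inside those across, and they are a description with no test.

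Rarely shared sites showed which tumours had sites in common. Of the 615 sites without a dbSNP identifier in 7 tumour lists (the 6 and A2iL-P14), 114 were called in 2 or 3 of the 7. A2iL-P9 tumours 1 and 2 had 7 of these 114 sites in common, tumours 1 and 3 had 6, and tumours 2 and 3 had 14. A2iL-P9 tumour 3 had 19 in common with 2iL-P9 and 20 with 2iL-F-P9, which had 19 in common with each other. These counts overlap, since a site called in all 3 of these tumours enters each of them. The set of 15 sites described below, apart from 1 also called in A2iL-P14, is part of each count. A2iL-P14 had 19, 15 and 14 in common with A2iL-P9 tumours 1, 2 and 3, and 10, 7 and 5 with 2iL-P9, LCDM-P9 replicate 1 and 2iL-F-P9. A stricter subset, chosen after these values were seen, left out segmental duplications, repeats and sites with an alternative read in the control. Among its 39 sites A2iL-P9 tumour 3 shared 9 sites with 2iL-P9, 9 with 2iL-F-P9, 4 with A2iL-P9 tumour 2 and 0 with A2iL-P9 tumour 1. The counts with 2iL-P9 and 2iL-F-P9 overlap here too. In this subset A2iL-P14 shared 11, 5 and 6 sites with A2iL-P9 tumours 1, 2 and 3, and 2, 1 and 1 with 2iL-P9, LCDM-P9 replicate 1 and 2iL-F-P9.

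**Figure D2:**
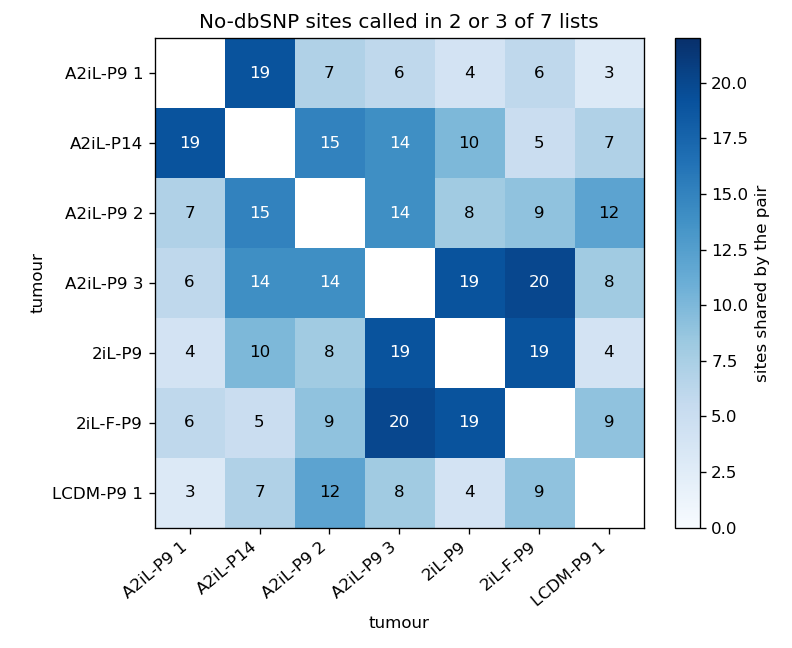
Number of sites without a dbSNP identifier, called in 2 or 3 of 7 tumour lists, that each pair of tumours has in common (number in the cell and colour). The largest values, 19 and 20, join A2iL-P9 tumour 3 with 2iL-P9 and 2iL-F-P9, these tumours with each other, and A2iL-P9 tumour 1 with A2iL-P14, while the 3 pairs of A2iL-P9 tumours share 6, 7 and 14, and A2iL-P14 shares 15 and 14 with A2iL-P9 tumours 2 and 3. A site called in 3 lists enters the cells of all 3 pairs, so the cells are not separate sets of sites.

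A set of 15 sites without a dbSNP identifier was called in A2iL-P9 tumour 3, 2iL-P9 and 2iL-F-P9 and in none of A2iL-P9 tumours 1 and 2 and LCDM-P9 replicate 1. The set was picked out for this pattern, so its values are a description. It lay on 9 chromosomes, 7 of its 8 coding changes altered a protein, and 12 sites lay outside segmental duplications and repeats. The median fraction was 0.192 in A2iL-P9 tumour 3, 0.143 in 2iL-P9 and 0.188 in 2iL-F-P9. None of the 15 was called in any of the 10 ESC lists, and 1, in the noncoding RNA Gm5478, was also called in A2iL-P14. The ESC lists keep no calls of a chromosome within 10000 bp of each other, so a site can be missing there for that reason.

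The set held 1 stop codon, W802X in exon 19 of Wdr11 (chr7:129625220, G to A), a WD-repeat protein of membrane trafficking. It was read in 24 of 125 reads in A2iL-P9 tumour 3, 44 of 167 in 2iL-P9 and 36 of 144 in 2iL-F-P9, against 1 of 188 in the control. These fractions of 0.192 (95% Wilson interval 0.133 to 0.270), 0.263 (0.203 to 0.335) and 0.25 (0.186 to 0.327) overlap in their intervals, which all lie below 0.5.

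The set held 6 missense changes, at fractions of 0.087 to 0.333. Olfr522 L24I, in an olfactory receptor, was read in 19 of 83, 14 of 90 and 14 of 72 reads in A2iL-P9 tumour 3, 2iL-P9 and 2iL-F-P9. Slc11a2 T193S, in the iron transporter DMT1, was read in 6 of 49, 6 of 58 and 4 of 46 reads. Auh A152T, in an enzyme of leucine breakdown that also binds RNA, was read in 5 of 41, 5 of 38 and 5 of 46 reads. Each of the 3 tumours carried these changes at a fraction below 0.25, and their intervals overlap.
Ttll5 N958S, in an enzyme that adds glutamate chains to tubulin, was read in 6 of 24, 4 of 28 and 6 of 22 reads. Nccrp1 P255R was read in 3 of 23, 6 of 18 and 3 of 16 reads. Ifit1bl2 S281C, in an interferon-induced family, was read in 35 of 178, 52 of 226 and 26 of 149 reads and lies in a segmental duplication.

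The remaining sites of the set were silent or outside coding sequence. Ncoa1 T644T, in the steroid receptor coactivator SRC-1, had low fractions, at 9 of 182, 17 of 238 and 6 of 149 reads. An intronic change in Terf1, whose product binds telomere repeats, was read in 11 of 101, 16 of 124 and 7 of 85 reads. Intronic changes in Acot7, BC004004, Cpxm2 and Col7a1 had fractions from 0.08 to 0.462, the last in Cpxm2 with 12 of 26 reads in 2iL-F-P9. An intergenic change at chr7:3109990 was read in 40 of 180, 41 of 200 and 23 of 121 reads. With at least 5 alternative reads in each tumour 10 of the 15 sites were left, and with at least 20 reads in tumour and control 12. With no alternative read in the control 10 were left.

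**Figure D3:**
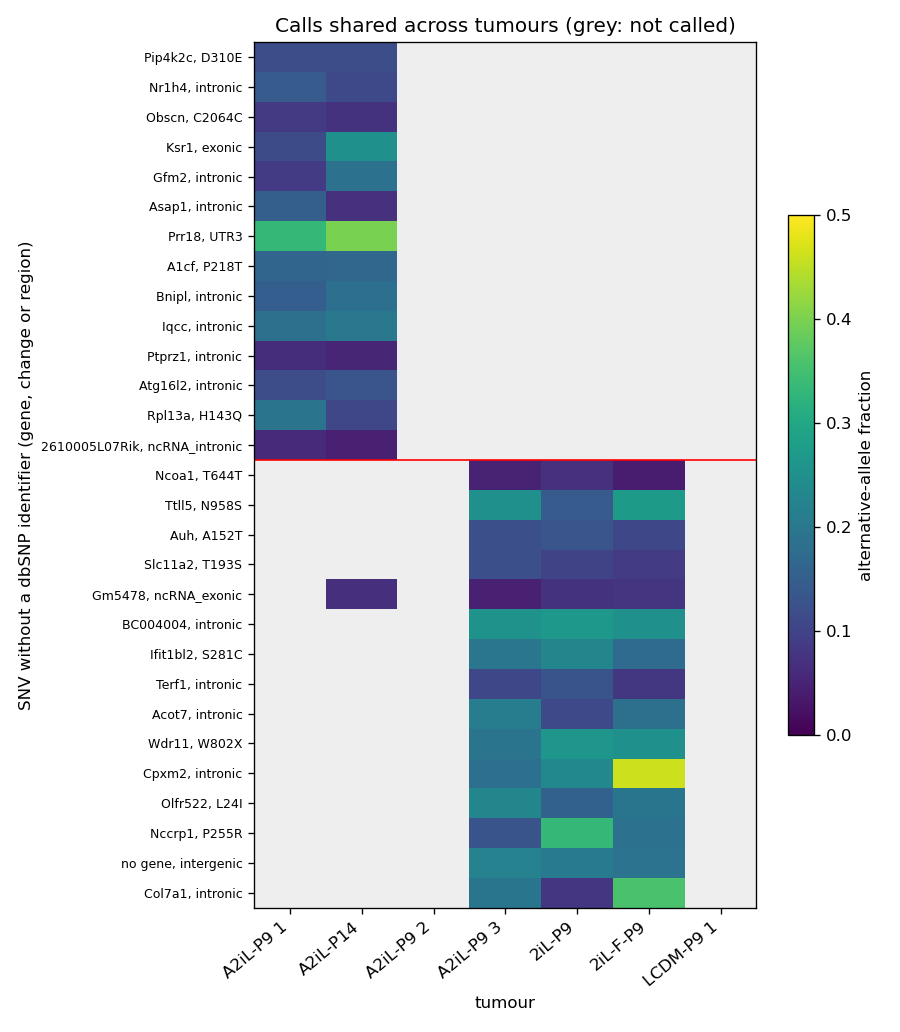
Alternative-allele fraction (colour scale, 0 to 0.5) of sites without a dbSNP identifier (rows, labelled by gene and protein change or region) in 7 tumours (columns), with grey where a site was not called. Above the red line are the 14 sites called in A2iL-P9 tumour 1 and A2iL-P14 only, and below it the 15 sites of A2iL-P9 tumour 3, 2iL-P9 and 2iL-F-P9, of which 1 was also called in A2iL-P14.

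A2iL-P9 tumour 1 shared its own set with the A2iL-P14 tumour. Both tumours carry the replicate number 1 in their labels, and the bearing of that number on the shared sites was not tested. In the 7 lists 14 sites without a dbSNP identifier were called in these tumours only, 11 of them outside segmental duplications and repeats and each with 0 alternative reads in the control. The fractions ranged from 0.059 to 0.333 in A2iL-P9 tumour 1 (median 0.132) and from 0.046 to 0.4 in A2iL-P14 (median 0.1265). A1cf P218T (chr19:31920869, exon 6), in the RNA-binding partner of the editing enzyme Apobec1, was read in 17 of 104 and 24 of 145 reads. Rpl13a H143Q, in a ribosomal protein of the large subunit, was read in 14 of 73 and 9 of 85 reads. Pip4k2c D310E, in a phosphoinositide kinase, was read in 4 of 33 reads in each.

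The other 11 sites of this set included Ksr1, a scaffold of the RAF and MEK kinases, whose exonic site with no stated protein change was read in 7 of 61 and 23 of 93 reads. Intronic sites lay in Bnipl (15 of 100 and 27 of 148 reads), Asap1 (17 of 112 and 11 of 152), Gfm2, Iqcc, Atg16l2, Ptprz1 and Nr1h4, which encodes the bile acid receptor FXR. Of the 14 sites 1, in the 3' untranslated region of Prr18, was called in ESC lists (6 of the 10), and it rested on 2 of 6 and 2 of 5 reads. A change of C to A, with its complement, accounted for 6 of the 14 and a change of C to T for 3. In the set of 15 these counts were 4 and 5. Of all calls without a dbSNP identifier in A2iL-P9 tumour 1, 15.8% were C to A and 45.2% C to T. In A2iL-P9 tumour 3, 2iL-P9 and 2iL-F-P9, C to A made up 16.2, 14.3 and 15.5%, and C to T 41.5, 42.0 and 40.2%. The C to A share of A2iL-P14 is not given. Both sets were picked by where their sites were called, and their base changes were not tested.

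Fewer sites were called in A2iL-P9 tumour 2 and exactly 1 other A2iL tumour of the 7 lists. With A2iL-P9 tumour 3 alone it shared 5 sites. They included an intronic site in Myo6, a myosin that moves towards the minus end of actin, with 8 of 37 and 14 of 58 reads. Its base qualities were only 14 and 15 in A2iL-P9 tumours 2 and 3. Another was an intronic site in Cul4a, the scaffold of a ubiquitin ligase, with 7 of 21 and 9 of 25 reads. The Cul4a site lies in a repeat and was called in 4 ESC lists. The control had 1 alternative read at the Myo6 site and 1 at the Cul4a site. With A2iL-P14 alone A2iL-P9 tumour 2 shared 3, and with A2iL-P9 tumour 1 alone 1. A2iL-P9 tumour 3 and A2iL-P14 alone shared 4, among them Ntrk2 T519N, in the BDNF receptor TrkB, with 4 of 49 and 9 of 54 reads.

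Protein changes without a dbSNP identifier that were called in 2 or 3 A2iL-P9 tumours and in no comparison tumour numbered 4. They were 2310057N15Rik G23E, Vmn2r96 T356K, Olfr761 D193Y and Ptprh G231R, all at fractions of 0.035 to 0.074. Ptprh, a receptor tyrosine phosphatase, had the deepest coverage, with 12 of 215 and 8 of 227 reads in A2iL-P9 tumours 2 and 3, and 8 of 281 in A2iL-P14. The first of them, 2310057N15Rik G23E, was also called in 6 ESC lists. In the other direction there were 3, Gm5458 R150H, Cyp2a5 A481V and Siah1b D27G, at 0.041 to 0.091. Siah1b D27G, in a ubiquitin ligase, was called in 6 ESC lists as well.

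Private protein changes without a dbSNP identifier numbered 4, 5 and 1 in A2iL-P9 tumours 1, 2 and 3 and 4, 10 and 5 in 2iL-P9, LCDM-P9 replicate 1 and 2iL-F-P9. Those of the A2iL-P9 tumours were at fractions of 0.035 to 0.16. In tumour 1 the best supported outside segmental duplications were Pde2a L422M, in a cyclic nucleotide phosphodiesterase (5 of 58 reads), and Vmn2r18 D110N (5 of 133). In tumour 2 they were Prpf8 I1571V, in the core of the spliceosome (5 of 68 reads), and Slc13a2 W9R, in a dicarboxylate transporter (5 of 70). Tumour 3 had Pnkd R108H alone, with 4 of 65 reads.
Of the comparison tumours, LCDM-P9 replicate 1 carried better supported changes. They were Fam71a K452N in 23 of 72 reads and Gucy2f R842W, in a retinal guanylate cyclase, in 21 of 50. The Gucy2f site is on chromosome X, whose copy number was not measured, so its fraction of 0.42 cannot be read against 0.5. The best supported of 2iL-P9 were Tuba1b D345V, in an alpha-tubulin (6 of 153 reads), and Nup210 T186M, in a nuclear pore protein (4 of 62). Those of 2iL-F-P9 were Ptpdc1 D657Y (4 of 97) and Thrap3 R720C (4 of 87).

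Genes of DNA repair, cell cycle, pluripotency and cancer were looked up through 7 lists with 211 genes in all, of which 44 (20.9%) had a call and 10 (4.74%) a protein change. Over all 21896 RefSeq protein-coding genes these shares were 13.0% and 2.63%. The shares were not tested, and they join both sides of the comparison. Protein changes were called in 10 of these genes at 11 sites, 9 of them called in all 6 tumours and 0 on one side only. Of 46 genes of DNA repair and checkpoints 13 (28.3%) had a call and 6 (13%) a protein change. Atm I2294L, in the kinase that responds to double-strand breaks, was at 0.325 to 0.432 in the A2iL-P9 tumours and 0.35 to 0.5 in the comparison tumours. Palb2 P314L, in the partner of Brca2, was at 0.372 to 0.559 against 0.469 to 0.553. Fanci S1236N, of the Fanconi pathway, was at 0.381 to 0.5 against 0.333 to 0.55. The ranges of these 3 changes overlap, and each change is a dbSNP polymorphism.

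At 2 repair genes the fractions did not overlap. Ercc2 I595V, in a helicase of nucleotide excision repair, was at 0.406, 0.468 and 0.441 in A2iL-P9 tumours 1, 2 and 3 and at 0.367, 0.333 and 0.362 in 2iL-P9, LCDM-P9 replicate 1 and 2iL-F-P9. Pms2 Y170H, in a mismatch repair protein, was at 0.45, 0.543 and 0.484 against 0.373, 0.426 and 0.439. Trim28 P542L, a chromatin corepressor, also lay higher in the A2iL-P9 tumours, at 0.513 to 0.552 against 0.462 to 0.492. Of all 7781 sites called in the 6 tumours, 9.2% had fractions that did not overlap, 4.92% with the A2iL-P9 tumours higher and 4.28% with them lower. The Wilson intervals of the single tumours overlap at each of these 3 sites.

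In the other lists Kmt2a N3581D, in a histone methyltransferase, was at 0.462 to 0.563 in the A2iL-P9 tumours and 0.412 to 0.615 in the comparison tumours. Fbxw7 N63D, in a tumour suppressor that marks cyclin E for destruction, was at 0.509 to 0.542 against 0.375 to 0.553. Of 30 genes of the p53 pathway and cell cycle 6 (20%) had a call, of 18 pluripotency genes 3 (16.7%), and of 13 telomere genes 1 (7.69%), set against 13.0% of all protein-coding genes. These 3 lists had 0 protein changes, where 2.63% of all genes had one. Lyn I242F, in a Src-family kinase, was the only protein change of these lists without a dbSNP identifier. It was read in 4 of 70 reads in A2iL-P9 tumour 1 and 5 of 88 in 2iL-F-P9, and lies in a segmental duplication.

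Depth over the control was compared by chromosome, as the median log2 of tumour over control depth at the sites called in all 6 tumours, with the autosome median of each tumour set to 0. A gain of 1 copy in every cell would give 0.58 on this scale. The A2iL-P9 tumours stayed between -0.19 (chromosome 3, tumour 1) and 0.12 (chromosome 17, tumour 3). Without chromosomes 2 and 16 the comparison tumours stayed between -0.15 and 0.13. LCDM-P9 replicate 1 reached 0.34 on chromosome 2 and 0.22 on chromosome 16, where the A2iL-P9 tumours were at 0.02 to 0.08 and 0.02 to 0.03. No A2iL-P9 tumour had a chromosome at that height.

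**Figure D4:**
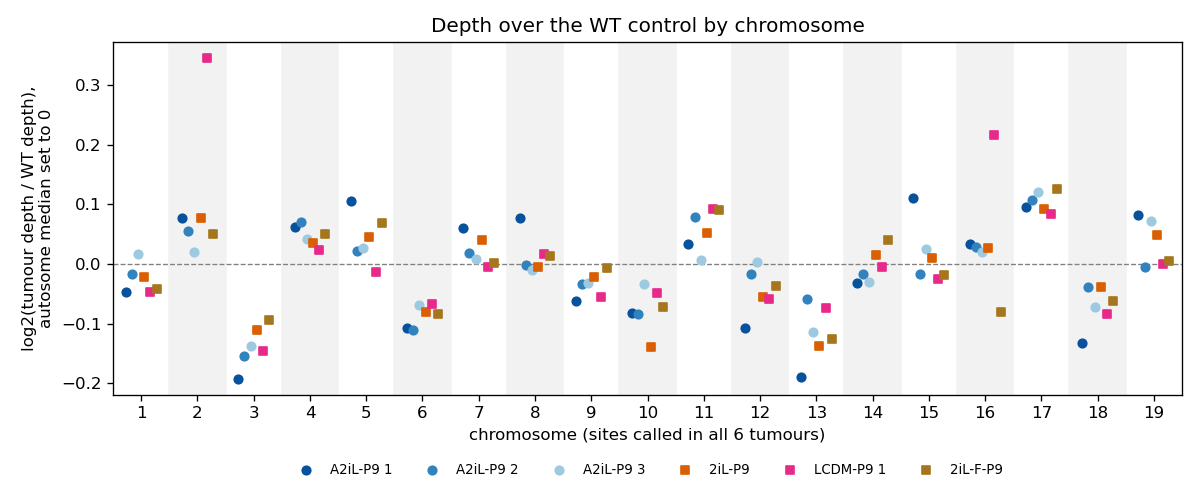
Median log2 ratio of tumour to wild-type control depth (vertical axis, autosome median of each tumour set to 0) for chromosomes 1 to 19 at sites called in all 6 tumours. Circles are the A2iL-P9 tumours and squares the comparison tumours. The pink squares of LCDM-P9 replicate 1 stand above all others on chromosomes 2 (0.34) and 16 (0.22), while the circles stay between -0.19 and 0.12.

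On chromosome 14 alone the depth ratios of the 2 sides did not overlap, that is on 1 of 19 chromosomes (5.26%). A2iL-P9 tumours 1, 2 and 3 were at -0.03, -0.02 and -0.03, and 2iL-P9, LCDM-P9 replicate 1 and 2iL-F-P9 at 0.01, -0.01 and 0.04. The difference of the means was -0.04 on the log2 scale (exact two-sided permutation p = 0.1, adjusted over 19 chromosomes 0.76). With all calls of each tumour it was -0.01 and with no alternative control read -0.02 (exact permutation, adjusted p = 0.95 in both). The adjusted p was under 0.05 on 0 of the 19 chromosomes, for depth and for fraction, as the design requires with 3 against 3 tumours.

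The median allele fraction by chromosome ran from 0.402 to 0.477 in the A2iL-P9 tumours. It did not overlap between the sides on chromosomes 3 and 10, 10.5% of the 19. On chromosome 10, at 132 sites, it was 0.402, 0.421 and 0.409 in A2iL-P9 tumours 1, 2 and 3 and 0.429, 0.438 and 0.444 in 2iL-P9, LCDM-P9 replicate 1 and 2iL-F-P9. The A2iL-P9 mean was lower by 0.0263 (exact two-sided permutation p = 0.1, adjusted 0.95). Chromosome 10 was the lowest of the 19 in each A2iL-P9 tumour and in 2iL-P9, and in LCDM-P9 replicate 1 apart from chromosomes 2 and 16. Its depth ratio was -0.08, -0.08 and -0.03 in the A2iL-P9 tumours, overlapping the -0.14 to -0.05 of the comparison tumours. On chromosome 3 the fractions were 0.433, 0.444 and 0.449 against 0.4595, 0.455 and 0.45, a difference of -0.0128 in the means (exact permutation, adjusted p = 0.95). It was -0.00483 with at least 20 reads in tumour and control and -0.00733 with all calls of each tumour (exact permutation, adjusted p = 1 in both).

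**Figure D5:**
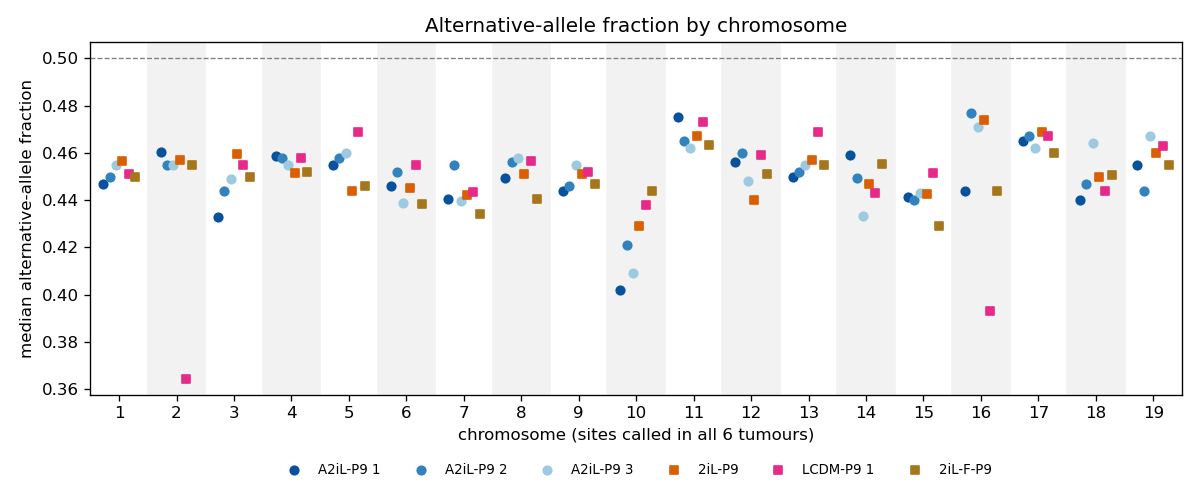
Median alternative-allele fraction of the sites called in all 6 tumours (vertical axis, not starting at 0) for chromosomes 1 to 19, with a dashed line at 0.5. Circles are the A2iL-P9 tumours and squares the comparison tumours. On chromosome 10 the circles (0.402 to 0.421) lie below the squares (0.429 to 0.444), and LCDM-P9 replicate 1 lies below the rest on chromosomes 2 and 16.

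LCDM-P9 replicate 1 had a median fraction of 0.3645 on chromosome 2 and 0.393 on chromosome 16. The A2iL-P9 tumours were at 0.455 to 0.4605 on chromosome 2 and at 0.444 to 0.477 on chromosome 16. At the 412 common sites of chromosome 2 the A2iL-P9 fractions lay above those of the comparison tumours, with no overlap, at 37 sites and below at 2. Without LCDM-P9 replicate 1 these counts were 48 and 40. On chromosome 16, with 141 sites, they were 11 and 5, and 12 and 13 without it. With all 6 tumours the fractions did not overlap, in either direction, at 9.47% of the chromosome 2 sites and 11.3% of the chromosome 16 sites. Over all 7781 common sites the share was 9.2%, with 4.92% higher in the A2iL-P9 tumours and 4.28% lower. No such share is given without LCDM-P9 replicate 1, so the counts without that tumour have no background. On the other chromosomes the medians of the comparison tumours ran from 0.429 to 0.473.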

How the data were processed

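Per the labels the libraries were made for Agilent SureSelect capture, while the series' design text names ATAC-seq for the tumours, so the assay is not settled. BWA, Picard and SAMtools were run by the authors on mm10, per the submitters' processing notes. Which caller was used was not given in the sources used here. For each SNV the deposited lists hold, per the file headers, the genotype, reads per allele, base quality, depth and alternative-allele fraction of tumour and control, with an annotation. Every line was marked as passing and somatic. The deposited fraction can differ slightly from alternative reads over depth. The control values were the same at 100% of 136101 calls shared by pairs of the 6 tumours.

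Sites were matched by chromosome, position and both bases in Python 3.11.15 with numpy 2.4.6, pandas 2.3.3 and scipy 1.17.1. Group means, other than numbers of calls, were compared by exact two-sided permutation tests over 20 splits, with Benjamini-Hochberg adjustment over chromosomes with at least 20 common sites or over base-change classes. The chromosome test was run on simulated depths only, with a separate simulated control for each tumour. The tumours of the data share a control, so that run lends no support to the results here. Intervals are 95% Wilson intervals. Residue numbers follow the first transcript of each annotation. Of 3077 gene symbols in the 6 lists 2937 are RefSeq symbols and 130 RefSeq synonyms.

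The tumours, gene lists and tests were chosen with earlier results of these data known. Named sites are the protein changes on one side only (up to 12 a side outside segmental duplications), those without a dbSNP identifier in 2 or 3 tumours of a side and none of the other, the 2 best supported private ones a tumour, list genes, and chromosomes without overlap. Other named sites were chosen after their values were seen. Depth, support, base quality, repeats, control reads, left-out tumours and the second LCDM-P9 tumour were varied as alternatives. One gene of the repair list is counted but not reported by name here.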

Additional observations from a re-analysis of the deposited data

How the results depend on the processing

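No paired analysis was possible because the groups compared share fewer than 2 replicate numbers, 2iL-P9 and 2iL-F-P9 carrying none. No alternative took an exact permutation p of a value per tumour below 0.1. With 3 against 3 or 2 against 3 tumours 0.1 is the smallest p, and a p that cannot pass the threshold says nothing about stability. Only with the second LCDM-P9 tumour added, 3 against 4, could p pass, the smallest possible being 0.0286. The lowest exact permutation p of a value per tumour was 0.4 there, for the C to T share. Among the alternatives to the values that answer a comparison, 33 moved a count by over 1.5 times or a value by over 1 SD, and 20 turned the sign of a difference. The SNV difference also turned within 1 SD. Differences are A2iL-P9 minus comparison. With at least 20 reads in tumour and control the median fraction without dbSNP identifier differed by -0.00233 and the C to T share by -0.309 percentage points, 9 sites were on the A2iL-P9 side only, and depth did not overlap on 2 chromosomes and fraction on 1. With at least 5 alternative reads the C to T share differed by -1.18, the protein-changing share by 1.84, 48 sites were on the comparison side only and depth did not overlap on 2 chromosomes. A base quality of at least 30 gave a protein-changing share difference of 0.0518. The fraction without dbSNP identifier differed by -0.00133 outside segmental duplications and repeats and by -0.017 with no alternative control read, where 16 sites were on the comparison side only. Adding the second LCDM-P9 tumour, with its different sites, gave differences of 1515.75 SNVs, 18.1 SNVs without dbSNP identifier, -0.0891 in the fraction of all calls and -0.00817 without dbSNP identifier, 2 comparison-side sites, 0 chromosomes for depth and 1 for fraction. Using all calls of each tumour left 1 chromosome for fraction. Requiring absence also from A2iL-P14 and the second LCDM-P9 tumour left 10 and 8 one-side sites. The cause of these shifts was not tested.

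Leaving out each tumour in turn, the SNV difference ran from -183.5 (without 2iL-F-P9) to 103.0 (without 2iL-P9). That of SNVs without dbSNP identifier ran from -19.2 (without 2iL-F-P9) to 9.0 (without A2iL-P9 replicate 1), and private SNVs from -18.0 (without 2iL-F-P9) to 1.0. The fraction ran from 0.00217 to 0.00417 over all calls and from -0.00667 to 0.00833 without dbSNP identifier. The C to T share ran from -0.263 to 2.10 and the protein-changing share from -1.84 to 2.12 percentage points. One-side sites rose, since fewer tumours had to match, to between 44 and 86 (A2iL-P9) and 49 and 79 (comparison), and chromosomes without overlap to between 3 and 5 for depth and 2 and 5 for fraction. The few reads behind many calls limit all of these: a site missing from a list may be under the caller's threshold.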

Other observations

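The ESC lists gave a second view of the sites of the tumours. Of the 425 sites without a dbSNP identifier in the 3 A2iL-P9 tumours, 95 to 108 were called in each of the 10 ESC lists. The A2iL ESC lists, numbered 3 and 5, held 99 and 104 of them. Of the 430 such sites in the comparison tumours 99 to 107 were called in each ESC list. The ESC lists were called against another control and their calls are spaced by at least 10000 bp. The spacing can remove shared calls, while the effect of the other control on these counts was not tested.

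Presence in ESC lists was also counted by how widely a site was shared. Of the 109 sites without a dbSNP identifier called in all 6, 78 were in at least 1 ESC list, at a median tumour fraction of 0.263, and 35 lay in segmental duplications or repeats. Of the 15 sites of A2iL-P9 tumour 3, 2iL-P9 and 2iL-F-P9, 0 were in an ESC list, and of the 14 of A2iL-P9 tumour 1 and A2iL-P14, 1 was. Of the 39 sites called in 2 or 3 of 7 lists, outside segmental duplications and repeats and without an alternative control read, 8 were. These sets were picked by where they were called, so the counts are descriptions with no test. The share of all sites without a dbSNP identifier that was in at least 1 ESC list is not given. How unusual the low counts are therefore cannot be read from them.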
